A study of Mus musculus with 11 samples.

Results

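Transcript levels of 10 germline genes were examined in mouse embryonic stem cells (ESCs) that had received siRNAs against CMTR1. The genes, chosen with earlier results of these data known, were Dazl, Mael, Sycp3, Tex19.1, Tdrkh, Piwil2, Asz1, Slc25a31, Stk31 and Tdrd12. They were picked by name as genes that act in germ cells and are controlled by DNA methylation in other cells. They are 10 of the 54838 genes with counts, and 9 of them were among the 16073 genes with more than 1 count per 1000000 counted reads (CPM) in at least 4 libraries, which were tested. Asz1 was below that limit. The cells were the E14 mouse ESC line, grown without feeder cells on gelatin with LIF and serum replacement. RNA was extracted 36 h after transfection of a control scramble siRNA (3 libraries), CMTR1 siRNA 1 (4 libraries) or CMTR1 siRNA 2 (4 libraries), and libraries were depleted of ribosomal RNA. All groups shared the line, the medium and the transfection, and differed in the siRNA. Each group comes from the same cell line, and the labels do not say whether its libraries came from separate cultures. The methods give fewer biological replicates than the 4 libraries that each CMTR1 siRNA has, so some of these may be technical, and each SD, SE and p-value below measures only the spread between libraries. Both siRNA groups were compared with the same 3 control libraries.

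CMTR1 is the enzyme that methylates the ribose of the first transcribed nucleotide of capped RNA. Germline genes of this kind work in the piRNA pathway, in which small RNAs bound to PIWI proteins silence transposons, and in meiosis, where the synaptonemal complex joins homologous chromosomes. Their promoters are methylated in somatic cells. In ESCs they are also held low by histone-modifying complexes, among them the Polycomb complex PRC1.6, which reaches promoters through MGA-MAX at E-box sequences and through E2F6. Some of them, such as Tex19.1, are normally transcribed in ESCs.

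The libraries held 6738478 to 8382318 counted reads. CMTR1 is encoded by Cmtr1, which was at 17.9 to 21.7 CPM in control libraries, 16.2 to 21.3 CPM with siRNA 1 and 15.6 to 19.5 CPM with siRNA 2, so the groups overlapped. The log2 fold change of Cmtr1 was −0.09 (SE 0.11, adjusted p = 0.743) with siRNA 1 and −0.25 (SE 0.11, adjusted p = 0.144) with siRNA 2. Neither value passed the test, so a fall of the Cmtr1 transcript was not shown in these libraries. CMTR1 protein was not measured in them. The transcript therefore does not check the labels, and groups are named below as labelled. Gm28043 overlaps Cmtr1 on the same strand, and reads in shared exons may have been given to neither gene. The ESC markers Pou5f1, Sox2, Nanog, Zfp42, Esrrb, Dppa5a and Tdgf1 all had reads in the libraries, with a summed level of 1620 to 1700 CPM in the control group. Prm1 and Prm2, the protamines of sperm, had 0 reads in all 11 libraries.

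Sequence was taken from RefSeq (GRCm38.p6) as windows of the 250 bases before each gene's RefSeq start. That start can differ from the GENCODE start used for the gene coordinates below. The windows of Dazl, Mael, Slc25a31 and Sycp3 reach 16, 3, 16 and 18 bases into the first GENCODE exon. For Tdrd12 the printed window reaches 1 base into it and the other window 30 bases. 9 of the 10 genes had a window there, with 11 windows in all since Stk31 and Tdrd12 have 2 each. The windows below belong to Dazl, the gene with the largest change, to Slc25a31, which had the next largest and carries an E-box, and to Tdrd12, which did not pass the test with siRNA 2 and whose window has the fewest CG dinucleotides. All are written 5′ to 3′ on the gene's own strand, with CG dinucleotides and the E-box letters CACGTG in capitals. The Dazl window is chr17:50293621-50293870 (minus strand), that of Slc25a31 is chr3:40708621-40708870 (plus strand) and that of Tdrd12 is chr7:35537745-35537994 (minus strand).
Dazl: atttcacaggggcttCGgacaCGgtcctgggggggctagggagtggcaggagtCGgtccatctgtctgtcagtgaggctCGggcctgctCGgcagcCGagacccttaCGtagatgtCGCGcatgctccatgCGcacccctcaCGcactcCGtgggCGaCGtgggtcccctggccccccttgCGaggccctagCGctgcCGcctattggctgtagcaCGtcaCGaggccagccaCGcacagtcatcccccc
Slc25a31: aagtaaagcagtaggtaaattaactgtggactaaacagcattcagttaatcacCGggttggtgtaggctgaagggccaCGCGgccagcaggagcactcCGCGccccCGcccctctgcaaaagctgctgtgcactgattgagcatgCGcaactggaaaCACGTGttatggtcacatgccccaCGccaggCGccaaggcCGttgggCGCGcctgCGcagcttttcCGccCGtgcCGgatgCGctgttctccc
Tdrd12: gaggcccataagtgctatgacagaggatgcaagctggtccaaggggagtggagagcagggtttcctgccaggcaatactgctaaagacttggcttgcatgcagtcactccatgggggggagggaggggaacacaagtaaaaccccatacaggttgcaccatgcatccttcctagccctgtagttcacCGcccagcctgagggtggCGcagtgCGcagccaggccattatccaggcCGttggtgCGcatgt

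The Dazl window holds 20 CG dinucleotides, that of Slc25a31 holds 18 and that of Tdrd12 holds 5. Over all 11 windows the number ran from 5 to 26, against a median of 15 in the windows of genes tested. The letters CACGTG, which read the same on both strands and include a CG, were in windows of 4 of the 9 members with a window, Mael, Slc25a31, Stk31 and Sycp3. They were in 8.28% of the windows of genes tested and in 6.02% of all windows. These shares count windows and not genes, so they are not on the same scale as the count of members. Counted from the RefSeq start, they lie 93 bases upstream in Slc25a31, and Sycp3 has 2 copies, 64 and 43 bases upstream. The E2F letters GGCGGGA, searched on both strands, were in 1 of the 9 members, Mael, and in 17.7% of the windows of genes tested, again a share of windows. The 4 members with CACGTG rose with siRNA 2, and so did Dazl, Tex19.1 and Tdrkh, whose windows lack these letters. These are matches of letters and do not show that a protein binds there.

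With siRNA 2, 8 of the 9 germline genes tested rose and none fell (edgeR quasi-likelihood test, Benjamini-Hochberg adjusted p of 0.05 or less), where 6.17% of all genes tested rose and 3.55% fell. The median log2 fold change of the 9 was 0.70, against 0.03 over all genes tested. Dazl and Slc25a31 changed most, by 1.48 and 1.37 on the log2 scale, and the other 6 that rose had values from 0.56 to 0.79. Tdrd12 had a value of 0.20 that did not pass the test. With each library left out in turn, 7 to 9 of the 9 rose. With siRNA 1, none of the 9 rose and 1, Tdrd12, fell, where 2.71% of all genes tested rose and 1.97% fell. At an unadjusted p under 0.05, 1 of the 9 was higher with siRNA 1, and DESeq2 and the exact test of edgeR called none higher. The median of the 9 with siRNA 1 was 0.17, against 0.02 over all genes tested. The 8 genes that rose with siRNA 2 were also higher in every siRNA 2 library than in every control library, which held for 12.4% of all genes tested.

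**Figure D1:**
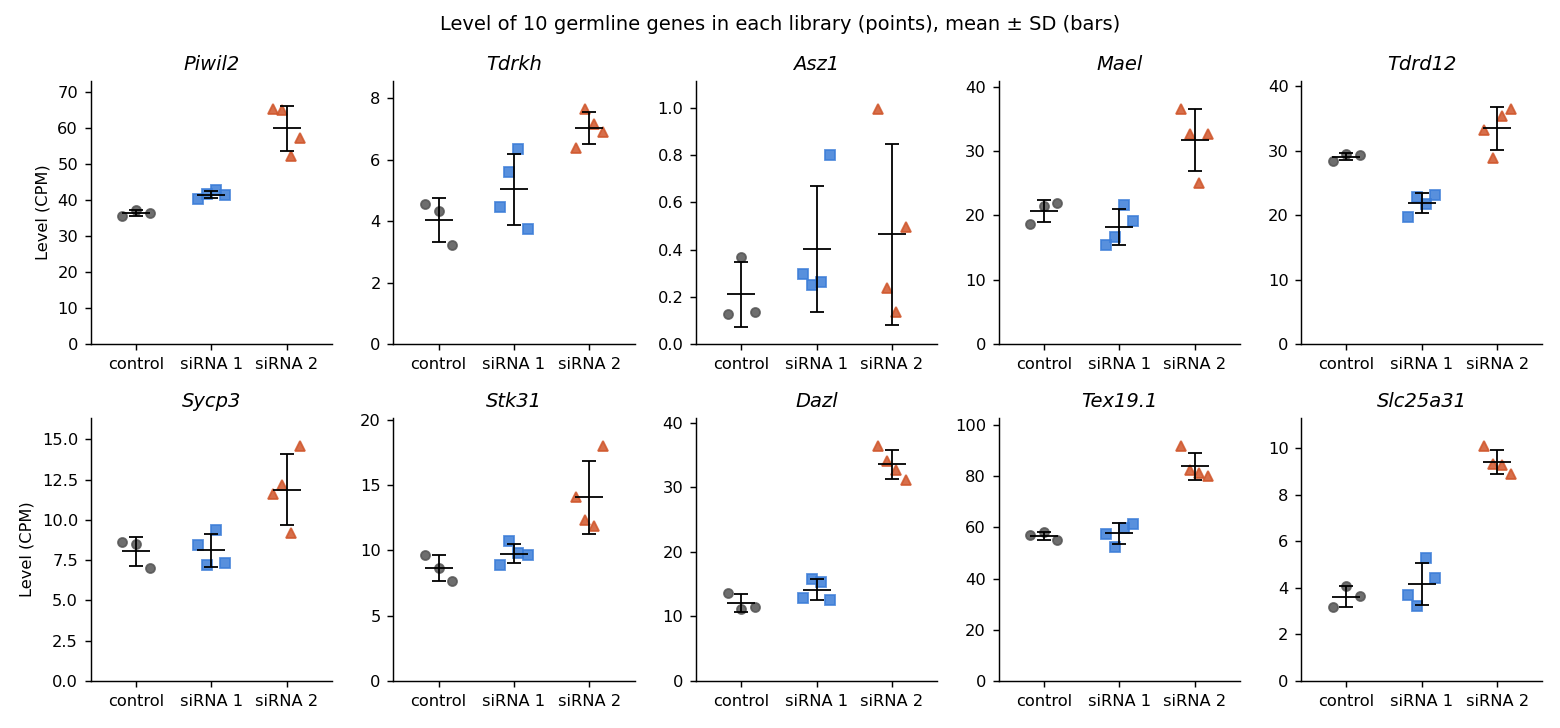
Level (CPM, vertical axis from 0, a different range in each panel) of each of the 10 germline genes in every library, with circles for control, squares for siRNA 1 and triangles for siRNA 2, and bars for the mean ± SD of 3, 4 and 4 libraries. The siRNA 2 libraries lie above all control libraries for 8 genes, and Tdrd12 is lower with siRNA 1 than in control.

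The piRNA pathway was represented by 5 genes. Piwil2 (chromosome 14, 70372477 to 70429383, GRCm38) encodes MILI, a PIWI protein that binds piRNAs and cuts transposon RNA. Its level was 35.7, 37.4 and 36.5 CPM in control, 40.4, 41.8, 42.8 and 41.4 CPM with siRNA 1 and 65.3, 65, 52.3 and 57.4 CPM with siRNA 2. The 3 groups did not overlap, in the order control, siRNA 1, siRNA 2. With siRNA 2 the log2 fold change was 0.72 (SE 0.073, adjusted p = 3.14e-09), a 1.64-fold rise. With siRNA 1 it was 0.19 (SE 0.077) and did not pass the test over all genes (adjusted p = 0.176), although all 4 libraries were above control (two-sided exact permutation p = 0.0571, the smallest that 3 against 4 libraries allow).

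Mael (chromosome 1, 166201201 to 166238747) encodes Maelstrom, a protein of the perinuclear granules where piRNAs are made. Its level was 18.66, 21.46 and 21.94 CPM in control, 15.43, 16.70, 21.66 and 19.25 CPM with siRNA 1 and 36.51, 32.69, 25.08 and 32.60 CPM with siRNA 2. All siRNA 2 libraries were above all others, while siRNA 1 and control overlapped. The log2 fold change was 0.62 (SE 0.10, adjusted p = 6.00e-05) with siRNA 2 and −0.18 (SE 0.11, adjusted p = 0.468) with siRNA 1.

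Tdrkh (chromosome 3, 94413273 to 94434668) encodes a mitochondrial Tudor protein needed for trimming piRNA ends. It was low, at 4.57, 4.32 and 3.23 CPM in control, 4.45, 5.61, 6.34 and 3.74 CPM with siRNA 1 and 6.39, 7.64, 7.15 and 6.91 CPM with siRNA 2. The siRNA 2 libraries were above all the others, narrowly so for 1 siRNA 1 library. The log2 fold change with siRNA 2 was 0.79 (SE 0.18, adjusted p = 0.00324), and with siRNA 1 it was 0.32 (SE 0.20, adjusted p = 0.437). Of the exon bases of Tdrkh, 36.7% are also exons of Oaz3 on the opposite strand, and Oaz3 had 0 reads in all libraries.

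Tdrd12 (chromosome 7, 35469098 to 35537745) encodes a Tudor-domain protein with a helicase domain, needed for making the piRNAs bound by the PIWI protein MIWI2. Its level was 28.4, 29.4 and 29.3 CPM in control, 19.7, 22.8, 21.7 and 23.1 CPM with siRNA 1 and 33.2, 28.9, 35.3 and 36.4 CPM with siRNA 2. All siRNA 1 libraries were below all control libraries, and 1 siRNA 2 library lay within the control range. It fell with siRNA 1 by 0.41 on the log2 scale (SE 0.09, adjusted p = 0.00333). With siRNA 2 the log2 fold change was 0.20 (SE 0.083, 95% interval 0.04 to 0.37, adjusted p = 0.123). Without siRNA 2 replicate 2, it was 0.27 and passed the test (adjusted p = 0.0354).

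Asz1 (chromosome 6, 18050964 to 18109061) encodes GASZ, another mitochondrial protein of piRNA production. It had 1 to 7 reads in a library, which was 0.127, 0.37 and 0.135 CPM in control, 0.297, 0.249, 0.264 and 0.802 CPM with siRNA 1 and 0.994, 0.239, 0.135 and 0.494 CPM with siRNA 2. The groups overlapped, and a difference was not detectable at this depth.

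The synaptonemal complex was represented by Sycp3 (chromosome 10, 88459569 to 88473236), which encodes a protein of its lateral elements. Its level was 8.63, 8.51 and 7 CPM in control, 8.46, 7.23, 9.38 and 7.35 CPM with siRNA 1 and 11.6, 12.2, 9.17 and 14.6 CPM with siRNA 2. The siRNA 2 libraries were above control, and the lowest of them lay within the siRNA 1 range. The log2 fold change was 0.56 (SE 0.15, adjusted p = 0.00853) with siRNA 2 and 0.0033 (SE 0.16, adjusted p = 0.996) with siRNA 1. The call with siRNA 2 was lost without control replicate 3 (0.48, adjusted p = 0.0791) and without siRNA 2 replicate 4 (0.45, adjusted p = 0.0547). Chpt1 exons on the opposite strand cover 52.2% of the exon bases of Sycp3. Chpt1 had a log2 fold change of 0.03 (SE 0.15) with siRNA 1 and of −0.04 (SE 0.14) between siRNA 2 and siRNA 1, and its adjusted p with siRNA 2 against control was 0.993.

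The other 4 genes have separate roles in germ cells. Dazl (chromosome 17, 50279395 to 50293636) encodes an RNA-binding protein that controls translation in germ cells. Its level was 13.6, 11.1 and 11.4 CPM in control, 12.8, 15.8, 15.3 and 12.6 CPM with siRNA 1 and 36.4, 34.1, 32.6 and 31.1 CPM with siRNA 2. The siRNA 2 libraries stood far above both other groups, which overlapped each other. The rise with siRNA 2 was 2.78-fold, a log2 fold change of 1.48 (SE 0.10, adjusted p = 3.61e-14). With siRNA 1 the log2 fold change was 0.23 (SE 0.12, adjusted p = 0.312).

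Slc25a31 (chromosome 3, 40708855 to 40726096) encodes the germ cell form of the mitochondrial ADP/ATP carrier. It was at 3.17, 4.07 and 3.63 CPM in control, 3.71, 3.24, 5.28 and 4.41 CPM with siRNA 1 and 10.1, 9.31, 9.3 and 8.89 CPM with siRNA 2. As for Dazl, the siRNA 2 libraries were separate from the others. The rise was 2.58-fold, with a log2 fold change of 1.37 (SE 0.17, adjusted p = 3.16e-07), against 0.20 (SE 0.20, adjusted p = 0.698) with siRNA 1.

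Tex19.1 (chromosome 11, 121146143 to 121148319) encodes a mammalian protein that restrains retrotransposons in germ cells and ESCs. Its level was 56.9, 58.3 and 55 CPM in control, 57.4, 52.2, 59.7 and 61.5 CPM with siRNA 1 and 91.9, 82.3, 81.3 and 80.1 CPM with siRNA 2. The control and siRNA 1 libraries overlapped, and the siRNA 2 libraries were above both. The log2 fold change was 0.56 (SE 0.064, adjusted p = 3.15e-08) with siRNA 2 and 0.02 (SE 0.067, adjusted p = 0.917) with siRNA 1.

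Stk31 (chromosome 6, 49395604 to 49469501) encodes a kinase-like protein with a Tudor domain found in testis. It was at 9.65, 8.63 and 7.67 CPM in control, 8.9, 10.7, 9.77 and 9.62 CPM with siRNA 1 and 14.1, 12.3, 11.9 and 18 CPM with siRNA 2. The siRNA 2 libraries were above all the others. The log2 fold change was 0.70 (SE 0.14, adjusted p = 0.000604) with siRNA 2 and 0.17 (SE 0.15, adjusted p = 0.612) with siRNA 1.

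**Figure D2:**
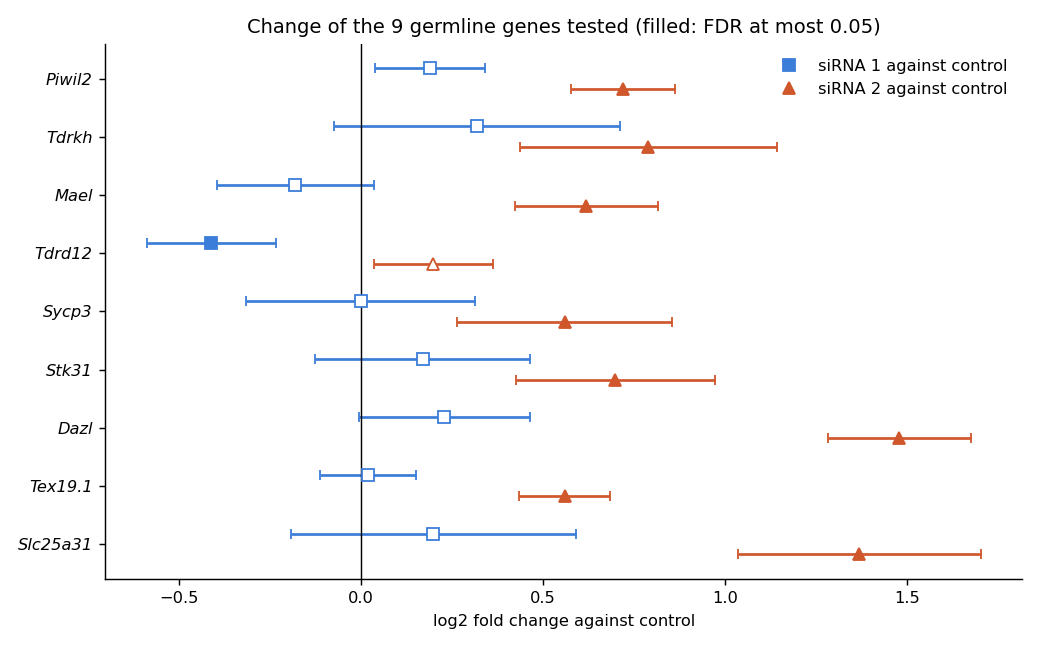
Log2 fold change against control (horizontal axis) of the 9 germline genes tested, with squares for siRNA 1, triangles for siRNA 2, 95% intervals as lines and filled symbols for an adjusted p of 0.05 or less. The siRNA 2 values run from 0.20 for Tdrd12 to 1.48 for Dazl, and Tdrd12 is the filled square at −0.41.

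The genes differed in their level as well as in their change. Per kilobase of exon, Tex19.1 was highest in control, at 30.3 ± 0.881 CPM per kb (SD, n = 3), followed by Mael at 11.9 ± 1.02 CPM per kb. Piwil2 (6.91 ± 0.16), Tdrd12 (6.70 ± 0.121) and Sycp3 (6.37 ± 0.72) came next, and these 3 did not differ beyond their spread. Dazl (3.15 ± 0.353) and Stk31 (2.67 ± 0.306) overlapped in their mean ± SD ranges. Below them were Slc25a31 at 1.70 ± 0.211, Tdrkh at 0.658 ± 0.116 and Asz1 at 0.0744 ± 0.0488 CPM per kb. With siRNA 2 (n = 4), Dazl at 8.78 ± 0.586 CPM per kb and Tdrd12 at 7.71 ± 0.769 overlapped in their mean ± SD ranges. Slc25a31 at 4.42 ± 0.235 was within the spread of Stk31 at 4.34 ± 0.868. Tex19.1 remained highest at 44.8 ± 2.89 and Asz1 lowest at 0.165 ± 0.136 CPM per kb. In bulk RNA, fewer cells with a transcript and less of it per cell cannot be told apart.

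The siRNAs were then compared with each other in the same fit, so that the control libraries entered the filter and the estimate of the spread but not the difference. 8 of the 9 genes were higher with siRNA 2 than with siRNA 1, where 4.49% of all genes tested were. The log2 differences (siRNA 2 minus siRNA 1) were 1.24 for Dazl (SE 0.092, adjusted p = 3.04e-13), 1.17 for Slc25a31 (SE 0.16, adjusted p = 9.92e-07) and 0.79 for Mael (SE 0.099, adjusted p = 3.07e-07), and from 0.52 to 0.61 for Tdrd12, Sycp3, Tex19.1, Piwil2 and Stk31. Tdrkh, at 0.48 (SE 0.16, 95% interval 0.16 to 0.79), missed the threshold (adjusted p = 0.063). For 8 of the 9 genes, Tdrkh included and Sycp3 not, every siRNA 2 library was above every siRNA 1 library, which held for 6.58% of all genes tested. The exact permutation p of each of these 8 was 0.0286, the smallest that 4 against 4 libraries allow. This p follows from the separation of the libraries and adds nothing to it. Cmtr1 itself had a log2 difference of −0.16 (SE 0.10, adjusted p = 0.387) between the siRNAs. Without siRNA 2 replicate 4 the calls of Sycp3 (0.45, adjusted p = 0.0539) and Stk31 (0.38, adjusted p = 0.0732) were lost.

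When both siRNAs were averaged and set against control, 6 of the 9 genes rose (Dazl, Tex19.1, Tdrkh, Piwil2, Slc25a31 and Stk31), where 4.19% of all genes tested did. This mean covers groups that differ from each other, as given above. The exact test of edgeR was run with the libraries of both siRNAs pooled into a single group, so the grouping changed as well as the test. There, 3 of the 9 rose. With each library left out in turn, the quasi-likelihood test called 4 to 6 higher.

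Other germline genes were taken from 3 lists that hold none of the 10, also written with earlier results of these data known. Of 54 tested on the 3 lists together, 25 rose and none fell with siRNA 2, where 6.17% of all genes tested rose and 3.55% fell, and the other 29 did not pass the test. Rnf212 and Tex101, among the 25 that rose, passed the filter only with their siRNA 2 libraries counted, so their rise is not independent of it. The same holds for Tdrd6, Syce3 and Mei1, which did not pass the test. The median log2 fold change of the 54 was 0.44, and it takes in these genes, so it is not fully independent of the filter. With siRNA 1, 1 rose and none fell, where 2.71% of all genes tested rose and 1.97% fell, and the median was 0.05. Among 19 other piRNA pathway genes tested, 9 rose with siRNA 2 (Ddx4, Fkbp6, Mov10l1, Piwil4, Pnldc1, Rnf17, Tdrd1, Tdrd9 and Tex15), with a median of 0.52. Fkbp6, which encodes a chaperone partner of PIWI proteins, was at 18.8, 21.7 and 22.7 CPM in control, at 19.7, 21.9, 22.7 and 24.3 CPM with siRNA 1 and at 42.9, 38.9, 39.4 and 38.9 CPM with siRNA 2. Its log2 fold change with siRNA 2 was 0.92 (SE 0.085, adjusted p = 2.93e-10), with separate libraries. Tex15, which acts in transposon silencing and meiotic recombination in male germ cells, rose by 0.85 (SE 0.09, adjusted p = 7.89e-09). Ddx4, the germ cell RNA helicase VASA, rose by 0.72 (SE 0.12, adjusted p = 3.00e-05). Tdrd5, a Tudor-domain protein of the same granules, was the gene that rose with siRNA 1, at 0.60 (SE 0.18, adjusted p = 0.0473). It was not called there by DESeq2, and had a value of 0.36 (SE 0.19, adjusted p = 0.238) with siRNA 2.

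Among 24 other meiotic chromosome genes tested, 10 rose with siRNA 2 and none with siRNA 1, where 6.17% and 2.71% of all genes tested rose. The medians of the 24 were 0.44 and 0.03, against 0.03 and 0.02 over all genes tested. The 24 take in Rnf212, Syce3 and Mei1, which passed the filter only with their siRNA 2 libraries counted. At an unadjusted p under 0.05, 2 were higher and 2 lower with siRNA 1, and DESeq2 and the exact test called none. The 10 were Sycp1, Sycp2, Syce1, 4930447C04Rik, Hormad1, Hormad2, Smc1b, Meioc, Rnf212 and Tex11, which include parts of the synaptonemal complex and of the meiotic axis. Rnf212 passed the filter only with its siRNA 2 libraries counted, so its rise is not independent of the filter. It was at 0.381 to 0.493 CPM in control, 0.445 to 1.07 CPM with siRNA 1 and 0.852 to 1.48 CPM with siRNA 2. Sycp2, the partner of Sycp3 in the lateral elements, was at 4.44, 3.33 and 3.5 CPM in control, at 4.45, 4.74, 4.09 and 4.01 CPM with siRNA 1 and at 12.5, 8.47, 10.4 and 11.1 CPM with siRNA 2. Its log2 fold change with siRNA 2 was 1.49 (SE 0.17, adjusted p = 3.78e-08), and every siRNA 2 library was above the others. Hormad2, a protein of unsynapsed axes, rose by 1.13 (SE 0.13, adjusted p = 7.39e-08) with siRNA 2 and had a value of 0.42 (SE 0.15, adjusted p = 0.0999) with siRNA 1.

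Of 11 further genes that are methylated in somatic cells, 6 rose with siRNA 2 (Taf7l, Brdt, Tex19.2, Tex101, D1Pas1 and Tuba3a) and none with siRNA 1. Over all genes tested, 6.17% rose with siRNA 2 and 2.71% with siRNA 1. The medians of the 11 were 0.29 and −0.03. At an unadjusted p under 0.05, none was higher and 1 lower with siRNA 1, and DESeq2 and the exact test called none. Tex101 passed the filter only with its siRNA 2 libraries counted, so its rise is not independent of the filter. It was at 0.863 to 1.21 CPM in control, 0.535 to 1.06 CPM with siRNA 1 and 2.47 to 3.1 CPM with siRNA 2. Taf7l, a TFIID subunit of germ cells, was at 5.97, 5.55 and 5.38 CPM in control, at 5.64, 6.11, 6.87 and 8.15 CPM with siRNA 1 and at 15.6, 15.6, 13.9 and 15.4 CPM with siRNA 2, a log2 fold change of 1.42 (SE 0.14, adjusted p = 1.15e-09) for siRNA 2. Brdt, the testis bromodomain protein, rose by 1.37 (SE 0.24, adjusted p = 0.000141). With the alternatives run, the number that rose with siRNA 2 was 2 to 6 on this list, 6 to 9 on the piRNA list and 8 to 10 on the meiotic list.

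**Figure D3:**
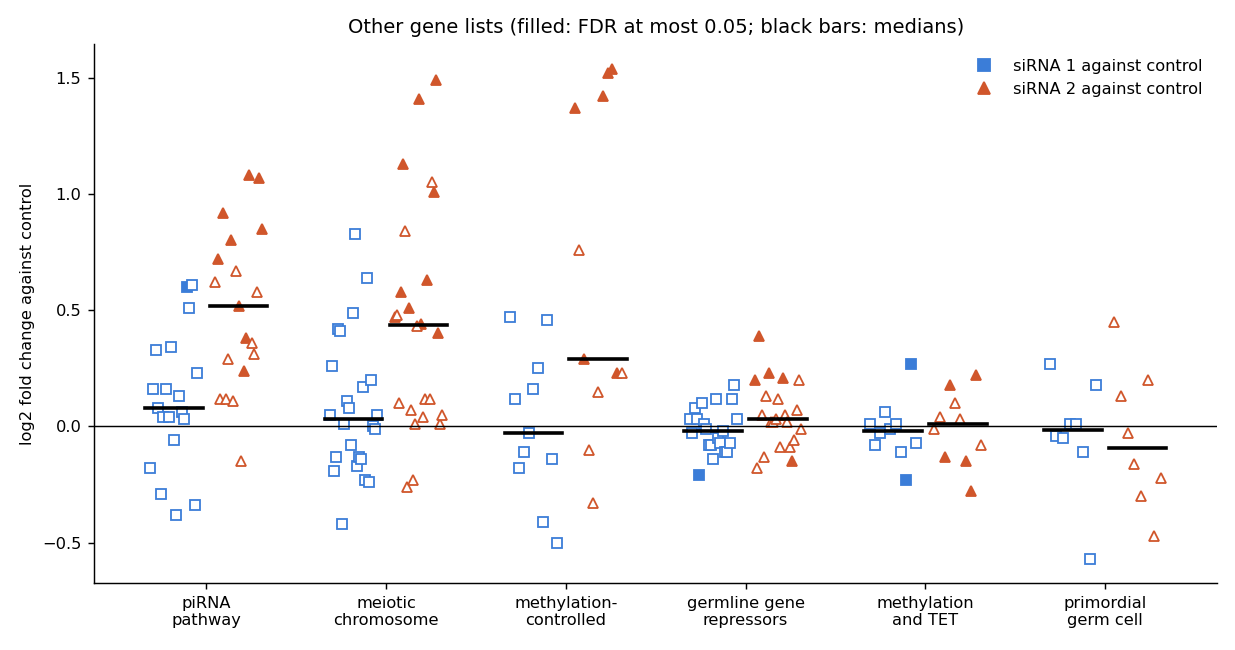
Log2 fold change against control (vertical axis) of each tested gene on 6 lists, with squares for siRNA 1, triangles for siRNA 2, filled symbols for an adjusted p of 0.05 or less and black bars for list medians. The medians with siRNA 2 are 0.52, 0.44 and 0.29 for the 3 germline lists and from −0.09 to 0.03 for the 3 other lists.

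Genes that repress the germline programme were then examined. Of 21 genes for PRC1.6, the G9a/GLP methyltransferases and the SETDB1 complex, 4 rose with siRNA 2 (E2f6, Rnf2, Hdac2 and Atf7ip) and 1 fell (Trim28), and 1 fell with siRNA 1 (Ehmt2), against shares of all genes tested of 6.17% higher and 3.55% lower with siRNA 2 and 1.97% lower with siRNA 1. Under the alternatives, 2 to 5 rose and 0 to 2 fell with siRNA 2, and 0 to 2 fell with siRNA 1. Their medians were 0.03 with siRNA 2 and −0.02 with siRNA 1. E2f6, a DNA-binding subunit of PRC1.6, was at 40.9, 41.3 and 39 CPM in control, at 41.4, 41.6, 44.6 and 43.6 CPM with siRNA 1 and at 56.4, 58, 49.1 and 48.3 CPM with siRNA 2. It rose with siRNA 2 by 0.39 on the log2 scale (SE 0.072, adjusted p = 0.000231). Atf7ip, the partner of SETDB1, rose by 0.20 (SE 0.046, adjusted p = 0.00382). Ehmt2, which encodes G9a, fell by 0.21 with siRNA 1 (SE 0.054, adjusted p = 0.016).

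Among 10 genes that write, maintain or oxidise DNA methylation, 2 rose (Dnmt3l and Tet3) and 3 fell (Tet1, Tet2 and Dnmt3b) with siRNA 2, and with siRNA 1 Tet3 rose and Tet2 fell. The shares of all genes tested were 6.17% higher and 3.55% lower with siRNA 2 and 2.71% and 1.97% with siRNA 1. Under the alternatives, 1 to 2 of the 10 rose and 1 to 3 fell with siRNA 2. Tet2, a 5-methylcytosine oxidase, fell by 0.23 with siRNA 1 (SE 0.049, adjusted p = 0.00224) and by 0.28 with siRNA 2 (SE 0.049, adjusted p = 9.53e-05). Tet3 rose by 0.27 (SE 0.06, adjusted p = 0.00355) and 0.22 (SE 0.06, adjusted p = 0.0132). Dnmt3l, the cofactor of de novo methylation, rose by 0.18 with siRNA 2 (SE 0.043, adjusted p = 0.00376). The de novo methyltransferase Dnmt3b was close to the threshold, at −0.13 (SE 0.042, adjusted p = 0.0497). DNA methylation itself was not measured here.

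None of 8 genes of primordial germ cell specification and maintenance that were tested passed the threshold with either siRNA, and their medians were −0.09 with siRNA 2 and −0.02 with siRNA 1. Over all genes tested, 6.17% rose and 3.55% fell with siRNA 2, and 2.71% rose and 1.97% fell with siRNA 1. Ifitm3 and Kit, those with the highest level, had log2 fold changes with siRNA 2 of −0.03 (SE 0.068) and −0.16 (SE 0.071). At an unadjusted p under 0.05, 1 was higher and 3 lower with siRNA 2, and 1 was higher and 1 lower with siRNA 1, and DESeq2 and the exact test called none. Some of the other alternatives called 1 or 2 of the 8 lower, and no alternative called any higher.

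Markers of cell types that the cultures could hold were summed in each library. The 10 germline genes together were at 176 to 184 CPM in control, 172 to 192 CPM with siRNA 1 and 264 to 307 CPM with siRNA 2. Of 7 ESC markers, 5 fell with siRNA 1 (Nanog, Esrrb, Zfp42, Dppa5a and Pou5f1) and 3 with siRNA 2 (Esrrb, Nanog and Zfp42), where 1.97% and 3.55% of all genes tested fell. Their summed level was 1620 to 1700 CPM in control, 1330 to 1520 CPM with siRNA 1 and 1460 to 1540 CPM with siRNA 2. Nanog, a pluripotency factor, fell by 0.57 (SE 0.091, adjusted p = 5.44e-05) and 0.54 (SE 0.09, adjusted p = 5.04e-05) with siRNA 1 and siRNA 2. The sums of all libraries of both siRNAs were below those of control, and the groups of the siRNAs overlapped.

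Markers of 2-cell-like cells, a rare state of ESC cultures, were tested for 4 of 7 genes, of which 2 rose with siRNA 2. Their summed level was 14.9 to 16.4 CPM in control, 12.3 to 18.2 CPM with siRNA 1 and 23.6 to 27.3 CPM with siRNA 2, and all 7 had reads. These were Zscan4d (0.77, SE 0.15, adjusted p = 0.000671) and Zscan4f (0.78, SE 0.23, adjusted p = 0.021), and DESeq2 called 1 of the 4. Over all genes tested, 6.17% rose. At an unadjusted p under 0.05, all 4 were higher with siRNA 2. Zfp352, 1 of the 4, passed the filter only with its siRNA 2 libraries counted, so its value is not independent of the filter. None of the 4 passed with siRNA 1 by edgeR or DESeq2 or at an unadjusted p under 0.05. Zscan4 genes are near-identical copies, so the split of reads between them is uncertain. The fibroblast markers summed to 21.8 to 26 CPM in control, 22.6 to 26.4 CPM with siRNA 1 and 30 to 35.7 CPM with siRNA 2. Of the 4 tested, Col1a1 rose (0.75, SE 0.13, adjusted p = 6.42e-05) and Col3a1 fell with siRNA 2 (−1.42, SE 0.40, adjusted p = 0.018), the latter not by DESeq2. Col3a1 passed the filter only with its control libraries counted, so its fall is not independent of the filter. None of 6 primitive endoderm markers passed the test with either siRNA by edgeR or DESeq2, or at an unadjusted p under 0.05, and their sums overlapped, at 54.9 to 72.2, 50.5 to 69.6 and 50.5 to 60.8 CPM. The late germ cell markers summed to 11 to 12.2 CPM in control, 10.6 to 13.5 CPM with siRNA 1 and 16 to 19.5 CPM with siRNA 2. Nearly all of it came from Ddx4, which is also on the piRNA list, so the sum follows that gene. Tnp1 and Acrv1 had 1 read each in the whole series. Acr, with 24 reads and too low to test, was not higher with siRNA 2. Its mean was 0.472 CPM in control, 0.207 CPM with siRNA 1 and 0.226 CPM with siRNA 2. The part of these cell types in the rise of the germline genes was not tested.

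**Figure D4:**
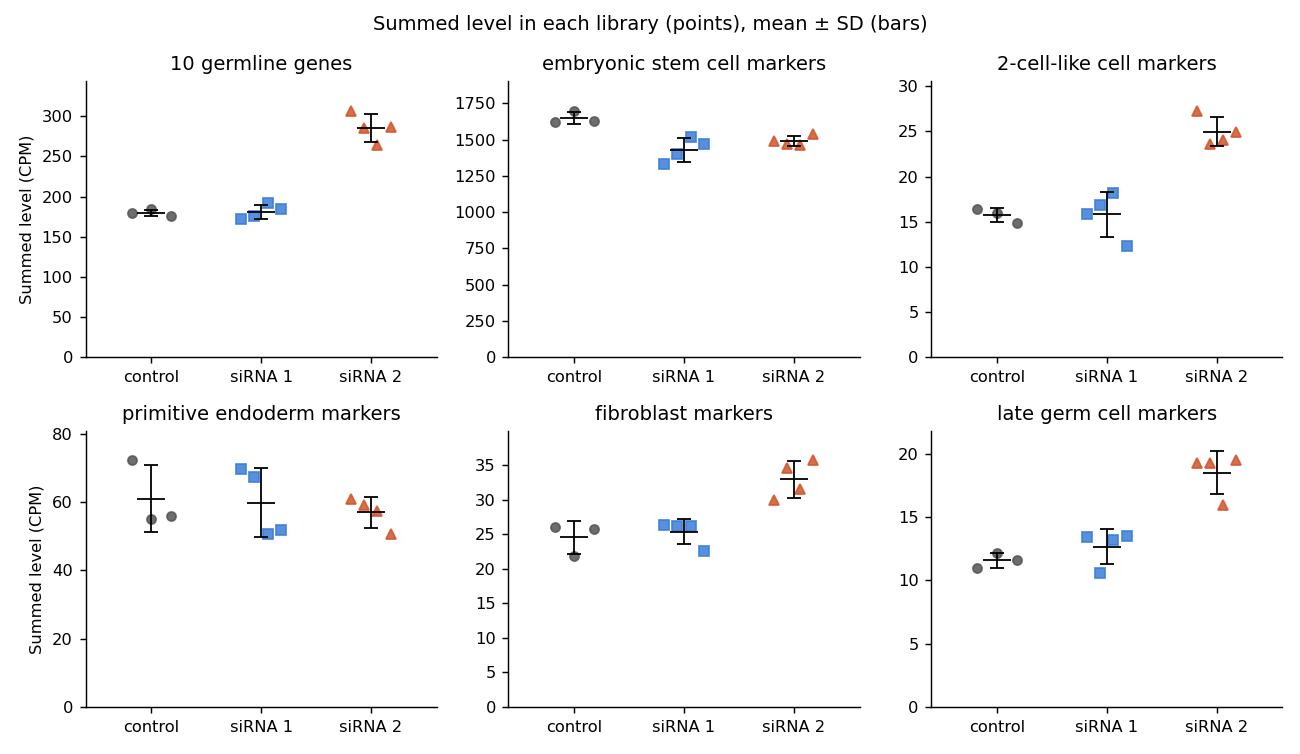
Summed level (CPM, vertical axis from 0, a different range in each panel) of the 10 germline genes and of 5 marker lists in every library, with circles for control, squares for siRNA 1, triangles for siRNA 2 and bars for the mean ± SD of 3, 4 and 4 libraries. The germline, 2-cell-like, fibroblast and late germ cell sums are highest with siRNA 2, and the ESC marker sum is highest in control. The late germ cell sum is nearly all Ddx4.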

How the data were processed

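The authors deposited counts of reads per Ensembl gene for 11 libraries of total RNA. Their methods and the labels name Cutadapt for trimming, STAR for alignment to GRCm38/mm10, Picard for the removal of duplicates and featureCounts for counting. Versions and the strand setting of the count are not given in the sources used here, and the summary lines, present for 10 libraries, have the layout of HTSeq-count. Those lines were set aside. They put 39.3% to 44.3% of the listed reads in no gene.

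Symbols, exons and coordinates came from GENCODE M21 (54809 of 54838 identifiers matched). CPM is the count per 1000000 counted reads. Genes with more than 1 CPM in at least 4 libraries were tested with the quasi-likelihood test of edgeR 4.0.16 (R 4.3.3) on a model of the 3 groups, with libraries scaled by total count, and Benjamini-Hochberg adjusted p-values over all 16073 genes, called at 0.05. Intervals are 1.96 SE, and cover the spread between libraries. Tables and plots were made in Python 3.11.15 (scipy 1.17.1, pandas 2.3.3, matplotlib 3.10.9, numpy 2.4.6). The test was checked on simulated counts. No library repeated another, and no 75-base word of the 10 genes occurs in another gene. Promoter windows are from the RefSeq table of GRCm38.p6, which was used without Piwil2.

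The 10 genes and the lists were chosen with earlier results of these data known. All 10 were named. From other lists, genes called with both siRNAs in 1 direction and the 2 called genes with the lowest adjusted p per siRNA were described, or the 2 with the highest level where none was called. Other called genes were listed after their values were seen. Alternatives were TMM factors, DESeq2 1.42.0, the exact test, other filters, fewer groups, library sizes without Gm26917, a replicate block and each library left out.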

Additional observations from a re-analysis of the deposited data

Results flagged for a closer look

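The effect of siRNA 2 differed from that of siRNA 1 in 8 of the germline genes by the test of the difference itself, with log2 differences of 1.24 for Dazl, 1.17 for Slc25a31, 0.79 for Mael, 0.61 for Tdrd12, 0.56 for Sycp3, 0.54 for Tex19.1, 0.53 for Piwil2 and 0.52 for Stk31. For Tdrd12 the values against control had opposite signs, −0.41 with siRNA 1 and 0.20 with siRNA 2, of which the first passed the test.

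In the siRNA 1 group, 1 library stood apart for Asz1, at 0.802 CPM against 0.249 to 0.297 CPM in the other 3, a gap of 0.91 of the range of the group. It had 6 reads of Asz1 where the others had 2. Of 20 groups examined this was the 1 that passed, and chance passes about 1 in 20.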

How the results depend on the processing

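The direction and the call of each germline gene in each comparison were the same in 268 of 279 values under alternatives that kept all libraries, and in 376 of 396 with a library left out. The reversed signs concern values near 0 with siRNA 1. Sycp3 (0.0033) became −0.017 with TMM factors and −0.018 with DESeq2, and ran from −0.084 to 0.058 with a library left out. Tex19.1 (0.022) became −0.0011 with DESeq2 and ran from −0.01 to 0.069. The number of all genes called fell from 1562 to 958 (siRNA 2) and from 1196 to 740 (siRNA 2 against siRNA 1) with DESeq2. For the mean of both it fell from 1110 to 693 with the exact test, which pooled both siRNA groups. That test called 3 germline genes there in place of 6. Scaling moved the balance of directions over all genes. The higher share of calls was 57.9%, 63.4% and 60.6% for siRNA 1, siRNA 2 and their mean with total counts, 46.4%, 49.8% and 47.0% with TMM factors and 38.2%, 42.7% and 40.3% with DESeq2, while 8 germline genes rose with siRNA 2 under each.

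With a library left out, genes called ran from 355 to 852 (siRNA 1), 807 to 1658 (siRNA 2), 499 to 1223 (mean of both) and 724 to 1365 (siRNA 2 against siRNA 1), and germline genes called from 1 to 1, 7 to 9, 4 to 6 and 6 to 9. Counts moved by over 1.5 times without control replicate 2 (355, 916 and 499 for siRNA 1, siRNA 2 and their mean), control replicate 3 (450, 807 and 512), siRNA 1 replicate 2 (425 for siRNA 1 and 724 between siRNAs), siRNA 1 replicate 1 (737 between siRNAs) and siRNA 2 replicate 1 (1007 for siRNA 2 and 751 between siRNAs). The cause was not tested. In the mean of both siRNAs, Tdrkh lost its call without control replicate 1, 2 or 3, siRNA 1 replicate 2 or 3 or siRNA 2 replicate 2, and Stk31 without control replicate 2 or 3, siRNA 1 replicate 2 or siRNA 2 replicate 4. Between siRNAs, Tdrkh passed the test with the exact test (0.48, adjusted p = 0.0491) and without siRNA 1 replicate 3 (0.60, adjusted p = 0.0262).

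Over all tested genes, libraries with the same replicate number did not deviate together (10 pairs, r from −0.057 to 0.062). Genes with few reads weigh as much as others in this r, so it cannot exclude that the numbers pair libraries. With replicate number as a block, 840, 1486, 1144 and 1242 genes and 1, 8, 5 and 8 germline genes were called, Sycp3 with siRNA 1 was −0.037, and Stk31 lost its call in the mean of both (0.36, adjusted p = 0.0872). At 1 to 7 reads in a library Asz1 was too low to test.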

Other observations

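The 3 genes whose level followed the 9 germline genes most closely over the 11 libraries were Pkp2 (r = 0.971), Taf7l (r = 0.968) and Scml2 (r = 0.965), among tested genes with a mean log2 CPM of at least 2 and a full symbol. These r describe a pattern set mostly by the siRNA 2 group. With the group means removed they were 0.452, 0.442 and 0.507. The 3 genes were picked on these same libraries, so their rise with siRNA 2 follows from the choice. The tests of Pkp2 and Scml2 below are a description and add no support. Pkp2, which encodes the desmosomal protein plakophilin, was at 55, 55.1 and 50.6 CPM in control, at 50.9, 55, 55.5 and 54.1 CPM with siRNA 1 and at 75.7, 70.7, 74 and 70.4 CPM with siRNA 2. Its log2 fold change was 0.44 (SE 0.062, adjusted p = 2.97e-06) with siRNA 2 and 0.01 (SE 0.064, adjusted p = 0.968) with siRNA 1. Scml2, a Polycomb-family protein of male germ cells, was at 10.2, 8.76 and 7.13 CPM in control, at 7.72, 8.1, 9.11 and 7.89 CPM with siRNA 1 and at 16.8, 16.3, 16.2 and 15.1 CPM with siRNA 2. It had a log2 fold change of 0.88 (SE 0.12, adjusted p = 3.00e-06) with siRNA 2 and of −0.08 (SE 0.14, adjusted p = 0.831) with siRNA 1.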
